A study of Mus musculus with 2 samples.

Results

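Cardiomyocytes of the ventricular type were picked out of single cell RNA profiles of the mouse embryo by their content of Myl2, the gene of the regulatory light chain of ventricular myosin. A cell was taken when at least 1% of its unique molecular identifiers (UMIs, which count captured transcripts) came from 8 sarcomere genes (Tnnt2, Tnni1, Myl4, Actc1, Ttn, Myh6, Myh7 and Myl7) and when it held at least 5 UMIs of Myl2. Cells with fewer than 1000 genes detected, or with more than 10% of mitochondrial UMIs, were left out. This gave 250 Myl2-positive cardiomyocytes among 16780 cells that passed the gene and mitochondrial filters, out of 17699 in the matrices. The 644 cells that met the sarcomere criterion with fewer than 5 Myl2 UMIs are called Myl2-low cells below, and the other 15886 are called the remaining cells.

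The embryos were Swiss Webster mice at embryonic day 9.5. The heart and pharyngeal apparatus were dissociated, live cells with GFP were collected by sorting and captured in droplets, and the 3′ ends of their transcripts were sequenced. Embryos of the group labelled Ctrl carried Mesp1Cre, which acts in early mesoderm, and a Rosa26-GFPflox/+ reporter, and those of the group labelled cKO carried the same alleles together with Tbx1flox/flox, which is meant to remove Tbx1 from that lineage. Each group is 1 library from a pair of pooled embryos, for which the study lists slightly later somite stages in the cKO pair. Genotype, embryos, stage and capture therefore cannot be told apart. The study made further E9.5 libraries, not analysed here, from another pair of these genotypes, a Tbx1Cre pair, and wild-type and Tbx1−/− embryos. With 1 library per group here, no test of the difference was possible. A ratio of the libraries compares those libraries and not the genotypes. All intervals are 95% intervals and cover counting error only.

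The ventricle of the early heart tube grows from cells of the first heart field and is extended at its arterial end by cells of the second heart field, which pass through the outflow tract. Its muscle separates into trabeculae, which express the natriuretic peptide genes Nppa and Nppb, and an outer compact layer. Ventricular identity is kept by factors such as Irx4 and Hey2, while Nr2f1 and Nr2f2 (COUP-TF factors) belong to the atrial program and Shox2 to the sinus venosus.

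Genes with high levels in the Myl2-positive cells are shown here with the bases just before their transcription start, because Nppa, Myl3, Pln and Acta1 were at least 2-fold higher than in the Myl2-low cells of both libraries. They were picked with their values seen, and Irx4 had larger ratios than any of them. The sequences are 250 bases each from RefSeq (GRCm38.p6), written 5′ to 3′ on the strand of the gene, at chr4:148000472-148000721 (plus strand), chr9:110763428-110763677 (plus), chr10:53337436-53337685 (plus) and chr8:123894776-123895025 (minus). Capitals mark matches to motifs that were searched as letters.
Nppa: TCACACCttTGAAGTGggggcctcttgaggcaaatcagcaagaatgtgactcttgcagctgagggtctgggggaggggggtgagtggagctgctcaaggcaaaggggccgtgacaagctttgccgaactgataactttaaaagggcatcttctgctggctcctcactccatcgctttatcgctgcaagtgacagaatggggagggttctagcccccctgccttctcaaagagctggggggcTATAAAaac
Myl3: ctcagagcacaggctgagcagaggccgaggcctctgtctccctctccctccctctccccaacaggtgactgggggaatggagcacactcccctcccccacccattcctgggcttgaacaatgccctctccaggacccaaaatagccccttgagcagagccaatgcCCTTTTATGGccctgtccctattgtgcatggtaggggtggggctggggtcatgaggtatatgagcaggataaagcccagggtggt
Pln: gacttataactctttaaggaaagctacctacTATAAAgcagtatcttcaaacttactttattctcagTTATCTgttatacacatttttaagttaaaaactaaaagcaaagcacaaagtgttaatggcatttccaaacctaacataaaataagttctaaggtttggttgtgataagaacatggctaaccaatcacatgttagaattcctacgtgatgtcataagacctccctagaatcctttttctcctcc
Acta1: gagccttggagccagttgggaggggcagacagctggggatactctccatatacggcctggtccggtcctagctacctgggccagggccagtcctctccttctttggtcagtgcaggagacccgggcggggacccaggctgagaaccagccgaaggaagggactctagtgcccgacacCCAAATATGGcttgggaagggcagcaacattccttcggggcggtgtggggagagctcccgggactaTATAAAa
The searched motifs were TCACACC for T-box factors, TNAAGTG for NKX factors, AGATAA for GATA factors, the MEF2 box and the CArG box of SRF, all on both strands, and TATAAA on the strand of the gene. In Nppa, TCACACC lay 250 to 244 bases before the start, the NKX match TGAAGTG lay 241 to 235 bases before it, and TATAAA lay 9 to 4 bases before it. Myl3 held a CArG box 85 to 76 bases upstream, and Acta1 held one 73 to 64 bases upstream with TATAAA at 7 to 2. Pln held a GATA motif, read as TTATCT, 183 to 178 bases upstream and TATAAA at 219 to 214. Matches of the different motifs did not overlap in these windows. Among all 32851 windows of this length, 3.33% held the T-box letters, 10.1% the NKX letters, 9.99% the GATA letters, 3.2% the MEF2 letters, 7.59% TATAAA and 1.47% a CArG box. A match describes the sequence and is not evidence of binding.

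The library labelled Ctrl held 95 Myl2-positive cardiomyocytes, which were 1.36% (1.10 to 1.66) of its 7007 filtered cells and 33.0% (27.6 to 38.7) of its 288 sarcomere-positive cells. The library labelled cKO held 155, which were 1.59% (1.35 to 1.85) of 9773 filtered cells and 25.6% (22.2 to 29.3) of 606 sarcomere-positive cells. The intervals of the 2 libraries overlapped for both shares. Sarcomere-positive cells as a whole took 4.11% (3.66 to 4.602) and 6.20% (5.73 to 6.70) of the filtered cells, and these intervals did not overlap. These shares depend on the dissection and the sort as well as on the embryo.

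The selected cells carried the genes their label names. Tnnt2 (troponin T of the thin filament) and Actc1 (cardiac actin) were detected in every selected cell of both libraries, and Myh7 (the slow myosin heavy chain) in all but 2. Levels of the summed cells are given per 1000000 UMIs (CPM). With Ctrl first and cKO second they were 3002 and 2813 for Tnnt2, 9300 and 10066 for Actc1, 2119 and 1375 for Myh7 and 2692 and 2509 for Myl2. Myl2 itself ranged widely between cells, from 133 to 10622 CPM in the library labelled Ctrl and from 149 to 16402 CPM in the other, with medians of 2024 and 2112. These genes chose the cells, so their levels are a description only.

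The lower limit on Myl2 ran through few cells. There were 8 selected cells with 5 or 6 Myl2 UMIs in the library labelled Ctrl and 5 in the other, and 7 and 17 sarcomere-positive cells with 3 or 4. Just inside the limit Myl3, the essential light chain that shares the ventricular myosin with Myl2, stood at 2538 and 3005 CPM, and just outside it at 2797 and 1633 CPM. Shox2 was at 0 inside and at 206 and 59.3 CPM outside. Nppa was higher just outside, at 613 and 306 CPM inside against 2233 and 823 CPM. Pln stood at 80.9 and 13.3 CPM inside and 21.7 and 34.9 CPM outside, and Nr2f2 at 98.3 and 93.1 CPM inside and 304 and 62.8 CPM outside, so in the library labelled cKO neither followed the direction seen in all cells. In contrast 149 of the 193 and 352 of the 451 Myl2-low cells had no Myl2 UMI at all.

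**Figure D1:**
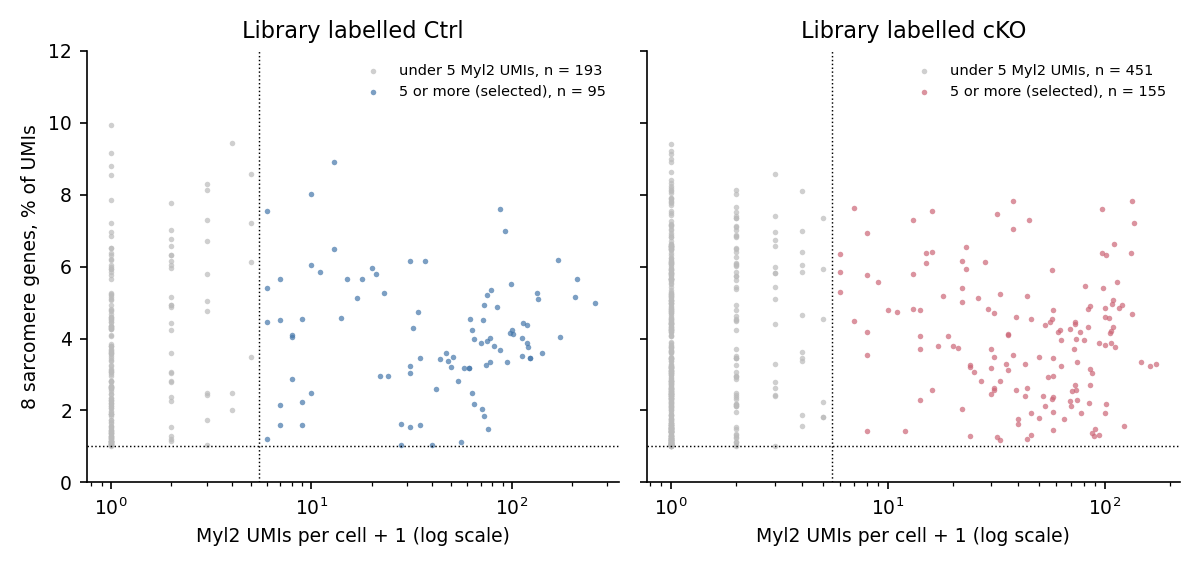
UMIs of Myl2 plus 1 (log axis) against the percent of each cell's UMIs from the 8 sarcomere genes, 1 panel per library, with a point for each sarcomere-positive cell and dotted lines at the limits of the selection. The coloured points are the 95 and 155 selected cells, whose Myl2 UMIs reach 260 and 171, and the grey points are the 193 and 451 Myl2-low cells.

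Summed over the selected cells, the depth was 2129566 UMIs under the label Ctrl and 3415668 under the label cKO, with medians per cell of 19802 and 18952 UMIs and 4364 and 4096 genes. Tbx1, the targeted gene, was not lower under the label cKO, at 26.9 CPM in all filtered cells of the library labelled Ctrl and 44.1 CPM in the other, and at 7.51 and 14.6 CPM (16 and 50 UMIs) in the selected cells. Whether the counted 3′ ends lie in the deleted part is not given in the sources used here. Some markers of other cell types were near 0 in the selected cells. Pecam1 and Cdh5 of endothelium had at most 1 UMI per library, and Ptprc of blood cells and Sox10 of neural crest had none. The whole endothelial list stood at 87.8 and 77.6 CPM, mostly Egfl7 and Kdr. Other lists were not near 0, with mesenchyme at 198.6 and 258.5 CPM (41 of 95 and 60 of 155 cells at 0). Epicardium stood at 70.9 and 58.55 CPM and pharyngeal mesoderm at 55.9 and 60.9 CPM. Haemoglobin transcripts differed. The erythroid list summed to 1.41 and 157 CPM, with 92 of 95 and 11 of 155 cells at 0, and Hbb-y was found in 0 of 94 selected cells in the library labelled Ctrl and 31.0% in the other after thinning to 5000 UMIs, against 3.34% and 32.7% of endothelial cells (1.05% and 74.8% of selected cells without thinning). Both Xist and Y-linked UMIs, at least 2 of each, occurred in 9 and 15 selected cells (9.47% and 9.68%), against 3.35% and 3.75% of the remaining cells. Doublet scoring would remove 12 of 95 and 31 of 155 selected cells. These are larger shares than the 5.94% and 8.23% it would remove of all filtered cells. Without the scored doublets 14 genes were at least 2-fold higher and 43 at least 2-fold lower in the comparison of the libraries below, beside 17 and 48 with them. The part of haemoglobin in the results below was not tested. Of 15 barcodes found in both libraries, 1 belonged to a selected cell.

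The first comparison set the Myl2-positive cardiomyocytes beside the Myl2-low cells of the same library, to see which genes go with Myl2 in cells chosen for Myl2. Myl3, Irx4, Hey2, Pln, Acta1 and Nppa were higher in the Myl2-positive cells of both libraries, and the 6 measured atrial and inflow genes were lower. Of the 12 thin filament genes, 7 were higher and 5 lower in the library labelled Ctrl (median log2 ratio 0.08) and 6 and 6 in the other (0.03). Of 8 measured calcium handling genes, 3 were higher and 5 lower in each library, with medians of −0.07 and −0.27. Of 2807 genes measured in both libraries (at least 50 CPM and 30 UMIs in a group), 24 were at least 2-fold higher in both, or 0.855%, and 30 were at least 2-fold lower in both, or 1.07%. In the library labelled Ctrl alone there were 40 and 47, and in the other 25 and 34. Because the cells were chosen on these counts, the differences describe the selection.

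Of the structural genes, Myl3 stood at 3483 CPM in Myl2-positive and 1163 CPM in Myl2-low cells of the library labelled Ctrl, and at 2712 and 1166 CPM in the library labelled cKO. Pln, which encodes phospholamban, the brake on the calcium pump of the sarcoplasmic reticulum, stood at 216 against 26.5 CPM and at 171 against 17.0 CPM. Acta1, skeletal actin, stood at 538 against 112 CPM and at 623 against 105 CPM. These ratios ranged from 2.33-fold for Myl3 in the library labelled cKO to 10.0-fold for Pln in the same library, and none of their intervals reached 1.

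Of the 4 measured trabecular genes of 7 listed, 3 were higher in both libraries. Nppa, atrial natriuretic peptide, stood at 953 against 365 CPM in the library labelled Ctrl and at 914 against 294 CPM in the other, and Nppb, brain natriuretic peptide, was 2.44-fold and 3.45-fold higher in the Myl2-positive cells. The transcriptional regulator Cited1, which marks trabecular muscle, stood at 117 against 10.4 CPM and at 112 against 18.6 CPM. Ankrd1, the other measured gene, was slightly lower, at 779 against 842 CPM (log2 ratio −0.11, −0.20 to −0.03) and 539 against 641 CPM (−0.25, −0.33 to −0.17). Gja5, which encodes connexin 40 and belongs to the same list, was under the measurement limit and lower, at 3.29 against 20.2 CPM and 1.76 against 11.0 CPM.

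Irx4, the ventricular homeobox factor, had 90 UMIs in the Myl2-positive cells of the library labelled Ctrl and 1 in its Myl2-low cells, and 181 and 2 UMIs in the library labelled cKO. The log2 ratio per UMI was 7.20 (4.68 to 12.5) in the library labelled Ctrl and 7.76 (5.88 to 10.8) in the other, wide because the smaller counts are so few. Hey2, the Notch-related repressor of the compact wall, stood at 33.3 against 1.15 CPM and at 21.1 against 0.981 CPM. After thinning to 5000 UMIs, an Irx4 UMI was present in 16.0% (9.21 to 24.9) of the Myl2-positive cells labelled Ctrl and 23.2% (16.8 to 30.7) of those labelled cKO, and in 46.3% and 60.6% without thinning. Endothelial cells, which should lack it, had a thinned share of 0 of 359 cells, for which a floor of 3 counts allows up to 0.836%, and of 0.303%, at median depths of 18066 and 15458 UMIs.

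Several genes outside the contractile program separated the same cells. Cck, the peptide hormone cholecystokinin, stood at 325 against 41.0 CPM in the library labelled Ctrl and at 221 against 70.3 CPM in the other. Ccnd2, a D-type cyclin that drives entry into the cell cycle, stood at 904 against 142 CPM and at 617 against 133 CPM. The imprinted gene Mest stood at 923 against 326 CPM and at 1041 against 395 CPM, a level close to the 879 CPM of the remaining cells labelled Ctrl. Mpped2 and Capn6 were 4.13-fold and 3.91-fold higher in the library labelled Ctrl, and 4.31-fold and 3.21-fold in the library labelled cKO.

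On the other side, all 6 measured genes of the atrial and inflow list of 8 were at least 2-fold lower in Myl2-positive cells in both libraries, with a median log2 ratio of −2.68 in the library labelled Ctrl and −2.61 in the other, against −0.03 and −0.02 over all measured genes. Shox2 stood at 2.82 against 207 CPM and at 7.32 against 119 CPM. Vsnl1, a calcium sensor of atrial muscle, stood at 17.8 against 284 CPM and at 26.9 against 299 CPM. Nr2f2 was less far apart, at 62.5 against 372 CPM and 71.4 against 240 CPM, and Angpt1, the angiopoietin ligand, at 51.7 against 356 CPM and 40.7 against 227 CPM.

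The signalling gene Wnt2 and the growth factor binding protein Igfbp5 were also lower in the Myl2-positive cells. Wnt2 stood at 68.6 against 237 CPM in the library labelled Ctrl and 90.8 against 242 CPM in the other. Igfbp5 stood at 445 against 1267 CPM and 288 against 729 CPM. Tbx5, the factor of the atria and left ventricle, was 2.69-fold lower in Myl2-positive than in Myl2-low cells in the library labelled Ctrl, and its log2 ratio was −0.88 in the library labelled cKO.

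Among the outflow tract and second heart field genes, Tdgf1 pointed in opposite directions in the libraries, a difference that was not tested. Tdgf1, the Nodal coreceptor Cripto, was 2.23-fold higher in Myl2-positive than in Myl2-low cells in the library labelled Ctrl, with a log2 ratio of 1.16 (0.83 to 1.49), and was lower in the library labelled cKO, at −1.16 (−1.71 to −0.65). Isl1, the second heart field factor, was lower in the Myl2-positive cells of both, with log2 ratios of −1.36 and −1.77. Of the 11 listed genes, 4 of 8 measured were at least 2-fold higher and 1 at least 2-fold lower in Myl2-positive cells labelled Ctrl, and 0 and 3 in those labelled cKO.

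**Figure D2:**
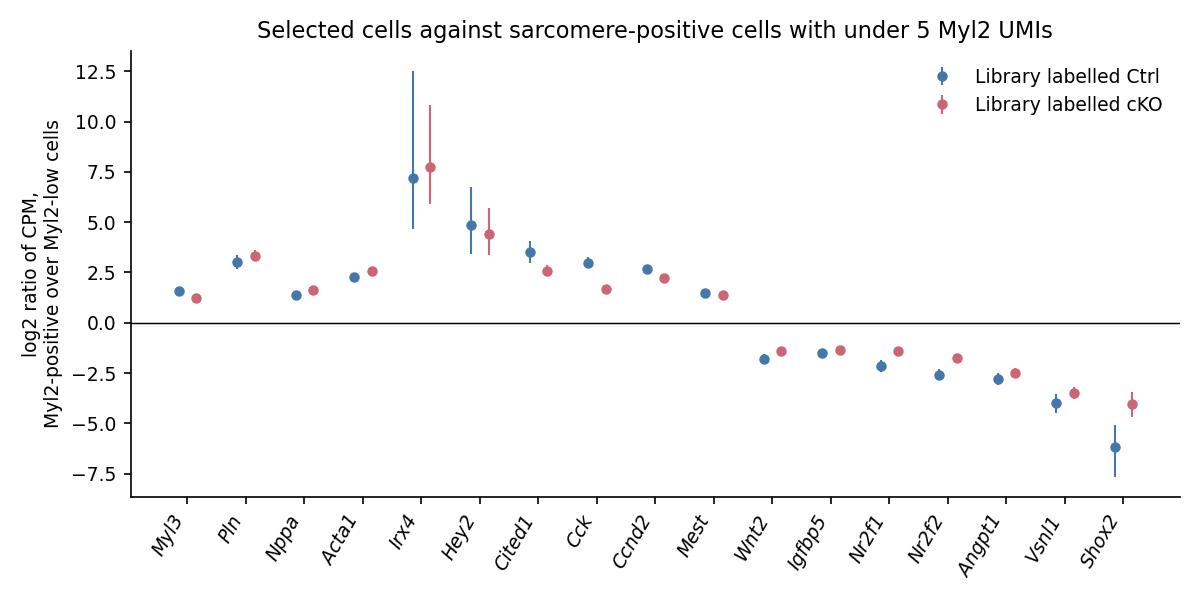
Log2 ratio of the level in Myl2-positive to that in Myl2-low cells for 17 genes (points, with 95% counting intervals), with 1 colour per library. Irx4 (7.20 and 7.76) and Pln (3.02 and 3.33) lie above 0 and Shox2 (−6.20 and −4.03) lies below it, in both libraries.

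The selected cells were not alike among themselves. Sorted by their Myl2 level into under 1000, 1000 to 3000 and at least 3000 CPM, they numbered 31, 25 and 39 cells in the library labelled Ctrl and 28, 74 and 53 in the other. Pln stood at 88.7, 80.9 and 486 CPM across these bins in the library labelled Ctrl and at 37.0, 141 and 326 CPM in the library labelled cKO. Irx4 stood at 5.38, 33.2 and 90.9 CPM and at 8.89, 51.0 and 88.7 CPM. Both genes were thus highest in the cells with most Myl2, a relation across bins defined by Myl2 that is given as a description.

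Mest and Nppa followed the same order. Mest stood at 437, 959 and 1408 CPM in the library labelled Ctrl and at 658, 1021 and 1357 CPM in the other. Nppa stood at 492, 1174 and 1228 CPM and at 379, 746 and 1625 CPM, so the upper bins of the library labelled Ctrl had overlapping intervals. Cck was concentrated in the top bin, at 685 CPM against 121 and 182 in the library labelled Ctrl and at 537 CPM against 91.8 and 106 in the other.

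Tdgf1, Nrp2 and Bmp4 ran the other way. Tdgf1 stood at 215, 36.1 and 1.44 CPM in the library labelled Ctrl, and at 32.6, 6.65 and 3.21 CPM in the library labelled cKO. Nrp2, a coreceptor for semaphorins and VEGF, stood at 351, 54.9 and 10.1 CPM and at 60.7, 36.6 and 4.28 CPM. Bmp4, a ligand of the outflow tract, stood at 136, 72.2 and 2.89 CPM and at 44.4, 29.4 and 7.48 CPM. Cxcl12 and Sema3c did not follow this order in both libraries. Cxcl12 stood at 91.4, 37.6 and 51.9 CPM and at 29.6, 43.8 and 62.01 CPM, and Sema3c at 126, 33.2 and 39.0 CPM and at 23.7, 14.4 and 35.3 CPM. In the lowest Myl2 bin the libraries differed 6.60-fold (4.21 to 10.8) for Tdgf1 and 5.78-fold (4.14 to 8.24) for Nrp2, while in the highest bin the Tdgf1 and Nrp2 intervals of the libraries overlapped.

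**Figure D3:**
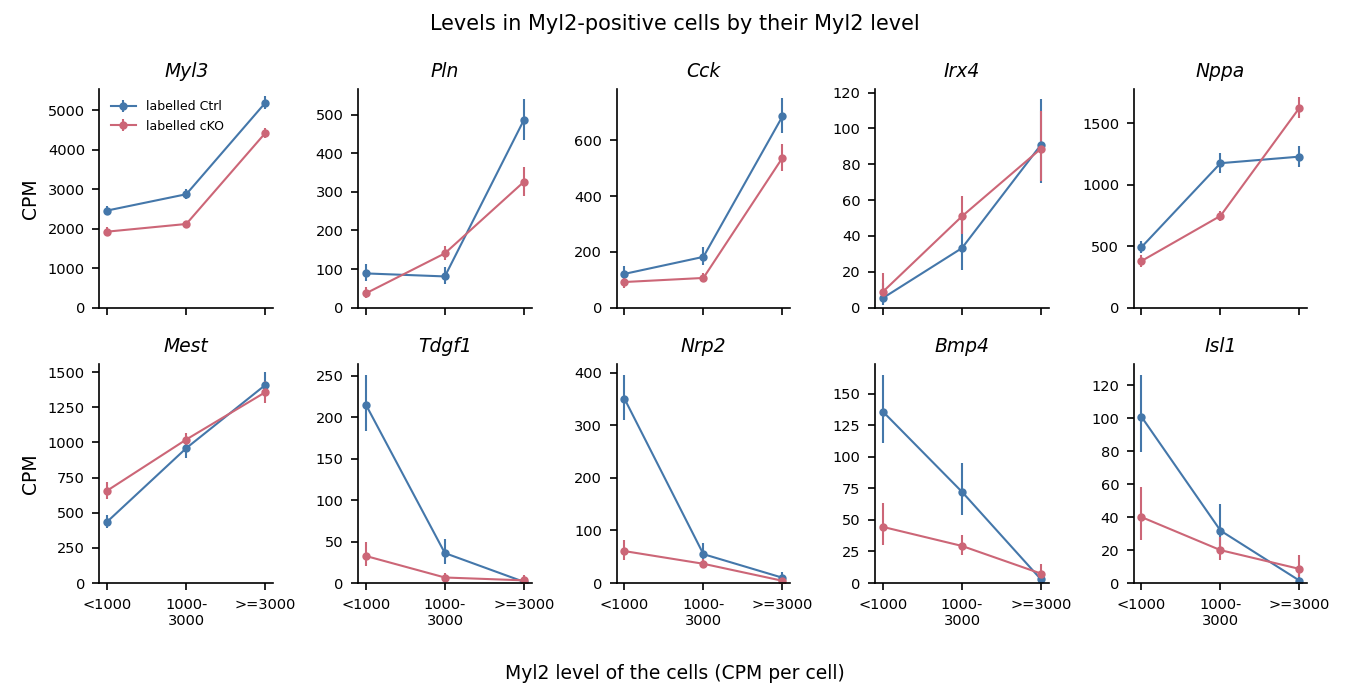
Level in CPM of 10 genes in Myl2-positive cells grouped by their Myl2 level (under 1000, 1000 to 3000 and at least 3000 CPM), 1 line per library, with 95% Poisson intervals. Myl3, Pln, Cck, Irx4, Nppa and Mest are highest in the top bin of both libraries, while Tdgf1 (215 to 1.44 CPM under the label Ctrl), Nrp2, Bmp4 and Isl1 are lowest there.

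Pairs of genes were also counted within single cells. After thinning, Cited1 and Tdgf1 were found together in 0 of 94 cells labelled Ctrl and 0 of 155 labelled cKO, where the shares of the genes multiplied would give 3.13 and 1.14. Without thinning 7 and 6 cells carried both, close to the products of 8.95 and 8.61. After thinning, Tdgf1 and Sema3c, a semaphorin of the outflow tract, were found together in 8 of 94 cells labelled Ctrl, where the product of their shares would give 2.98, and Sema3c and Bmp4 in 10, where it would give 4.04. In the library labelled cKO these pairs were found in 0 and 1 of 155 cells, with products of 0.31 and 0.929. Without thinning the pairs were found in 17 and 25 cells labelled Ctrl (products 10.8 and 15.5) and in 4 and 15 labelled cKO (4.36 and 13.7).

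The second comparison set the Myl2-positive cardiomyocytes of the library labelled cKO beside those of the library labelled Ctrl, the contrast for which the study was designed. Outflow tract genes, Nrp2, Nppb, Ryr2 and genes of the hypoxia response were lower in the library labelled cKO, while the sums of Nppa and Cited1 stood close to the other library. Of 3111 measured genes, 17 were at least 2-fold higher, or 0.546%, and 48 at least 2-fold lower, or 1.54%. The median log2 ratio over all measured genes was −0.02, with 1485 genes (47.7%) higher and 1626 lower. This is the background for the counts of higher and lower genes in each list below. How many of all measured genes had an interval past 0 was not counted, so counts of intervals in the lists lack that background. With at least 1.5-fold required as well, 95 genes were higher and 291 lower with such an interval. The selection used the counts of the sarcomere genes and Myl2 in each library and no difference between the libraries.

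Each pair of pooled embryos held both sexes, since 43 and 61 selected cells had Xist but no Y-linked UMI and 36 and 48 had Y-linked but no Xist UMIs. These cells are among those whose sums chose the genes, so their ratios are a description and no independent support. At least 1.5-fold in the same direction was seen in both the Xist-only and the Y-only cells for 15 of the 17 higher and 41 of the 48 lower genes, and at least 2-fold for 11 and 10. Cells of 1 sex and of 1 embryo cannot be told apart here if each pair was 1 embryo of each sex, and these cells are not replicates of a genotype.

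All 7 measured genes of the outflow tract and second heart field list of 11 were lower under the label cKO, 6 with an interval below 0 and 3 at least 2-fold, with a median log2 ratio of −0.82 (−1.12 to −0.65). This median lay between −0.45 with at least 10 Myl2 UMIs required and −1.19 without cells carrying both Xist and Y-linked UMIs. Tdgf1 stood at 87.3 CPM (75.2 to 101) in the library labelled Ctrl and at 10.8 CPM (7.63 to 14.9) in the other, a log2 ratio of −3.01. In Xist-only cells it stood at 82.1 and 23.5 CPM and in Y-only cells at 51.7 and 7.05 CPM, so it was lower under the label cKO in both.

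Sema3c stood at 67.6 and 22.0 CPM, and the Y-only intervals of the libraries overlapped (53.0 and 32.9 CPM). Bmp4 stood at 71.9 and 26.4 CPM, with Xist-only levels of 49.5 and 30.03 CPM that also had overlapping intervals and Y-only levels of 74.2 and 16.4 CPM that did not. The Wnt agonist Rspo3 stood at 94.9 and 53.6 CPM. Itm2a, a membrane protein gene, stood at 361 and 207 CPM in all cells but at 290 and 285 CPM in Xist-only cells, against 354 and 170 CPM in Y-only cells. The other measured genes of the list, the chemokine gene Cxcl12 and the transcription factor gene Hand2, had log2 ratios of −0.41 and −0.28.

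The 4 listed genes under the measurement limit were lower too. Isl1 stood at 46.0 and 20.8 CPM, the growth factor genes Fgf10 and Fgf8 at 38.0 and 16.7 and at 20.2 and 9.08 CPM, and Wnt11 at 34.8 and 18.7 CPM. In Xist-only cells the intervals of the libraries overlapped for all 4. In Y-only cells they overlapped for Fgf10 and Fgf8 but not for Isl1 and Wnt11. In the Myl2-low cells the list's median log2 ratio was −0.26, and in the remaining cells −0.32, over 4 measured genes in each. Of the 4 measured in Myl2-low cells, 3 were lower with intervals below 0, and Itm2a had a log2 ratio of 0.13 (−0.03 to 0.28). Rspo3 and Cxcl12, under the measurement limit there, had 0.52 and 0.59.

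In these sums, fewer cells with outflow transcripts and fewer such transcripts per cell cannot be told apart, so outflow genes were also counted per cell. Summed over 8 genes of the list (all but Hand2, Cxcl12 and Itm2a) after thinning to 5000 UMIs, at least 4 UMIs were found in 20 of 94 Myl2-positive cells labelled Ctrl, or 21.3% (13.5 to 30.9), and in 10 of 155 labelled cKO, or 6.45% (3.14 to 11.5). At least 2 were found in 34.0% (24.6 to 44.5) and 22.6% (16.3 to 29.98), whose intervals overlap. A Tdgf1 UMI was present in 14.9% (8.39 to 23.7) and 2.58% (0.708 to 6.48) of the thinned cells, and in 26.3% and 9.68% without thinning, against 0 of 359 endothelial cells labelled Ctrl, where the same floor allows up to 0.836%. In Myl2-low cells, at least 4 of the summed outflow UMIs were found in 20.9% (15.4 to 27.4) labelled Ctrl and 12.3% (9.4 to 15.7) labelled cKO.

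Setting aside the cells with at least 2 outflow UMIs left 62 and 120 cells, in which Tdgf1 stood at 3.51 and 2.90 CPM. In these cells Nppb and Ryr2 had log2 ratios of −1.59 (−1.76 to −1.42) and −1.41 (−1.65 to −1.17), and Nppa and Cited1 were lower under the label cKO, at −0.39 (−0.48 to −0.31) and −0.42 (−0.66 to −0.18). Among the 32 and 35 cells with at least 2 outflow UMIs the interval for Ryr2 held 0 (−0.27, −0.70 to 0.16), and Nppb had −1.04 (−1.43 to −0.67). Outflow UMIs themselves differed between the libraries and Tdgf1 is among the genes summed, so each side of the split can hold unlike cells in the libraries, and the part of outflow cells in these ratios was not tested. With at least 2, Tdgf1 stood at 258 and 44.3 CPM and Nrp2 at 338 and 77.9 CPM. Nppa was higher in these cells under the label cKO, at 332 CPM against 84.2, as was Cited1, with 26 UMIs against 3, a log2 ratio of 3.21 (1.51 to 5.58).

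Nrp2 stood at 144 CPM (306 UMIs) in the library labelled Ctrl and 32.5 CPM (111 UMIs) in the other, a log2 ratio of −2.15 (−2.47 to −1.83). It stood at 78.7 and 47.1 CPM in Xist-only cells and at 162 and 17.6 CPM in Y-only cells. No Nrp2 UMI was found in 60 of 95 and 111 of 155 cells, and the highest single cells reached 2777 and 1460 CPM, so its level rests on few cells. Its ratio was −0.90 in the Myl2-low and −0.52 in the remaining cells.

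The trabecular genes split. Nppa stood at 953 and 914 CPM (log2 ratio −0.06, −0.14 to 0.02), while Nppb, its neighbour on chromosome 4, stood at 420 and 158 CPM (log2 ratio −1.41, −1.57 to −1.25). The Xist-only cells held Nppb at 499 and 119 CPM, and the Y-only cells stood at 293 and 274 CPM with overlapping intervals. Cited1 stood at 117 and 112 CPM. Per cell, the median of Nppa was 169 CPM in the library labelled Ctrl (34 of 95 cells at 0) and 473 CPM in the other (37 of 155 at 0), and that of Cited1 was 0 (61 of 95 at 0) and 40.2 CPM (66 of 155 at 0), so like sums went with unlike single cells. Ankrd1, a stress-responsive cofactor, stood at 779 and 539 CPM. Among the 4 measured genes of the list of 7, all were lower and 1 was past 2-fold, with a median of −0.30. The window of 250 bases taken for Nppb overlaps its annotated gene, so it is not shown and is unlike the Nppa window. Counted back from its end, it held AGATAA at 84 to 79 and TATAAA at 31 to 26 bases. It held no T-box or NKX letters, and the part of these letters in the levels was not tested.

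Among ventricular genes, Irx4 stood at 42.3 and 53.0 CPM with an interval of the log2 ratio of −0.05 to 0.71, Hand1, a factor of the outer curvature of the left ventricle, at 34.8 and 34.3 CPM, and Tbx5 at 43.2 and 38.7 CPM. Split by outflow UMIs, Tbx5 was lower under the label cKO in cells with fewer than 2 (log2 ratio −0.66, −1.09 to −0.23) and higher in those with at least 2 (2.10, 0.87 to 3.54), and Hand1 had log2 ratios of −0.52 and 1.56. Hey2 was lower, at 33.3 and 21.1 CPM (−0.66, −1.16 to −0.17), and Irx5 and Irx3 were higher, at 13.2 and 22.5 CPM and at 16.4 and 25.8 CPM. In the atrial and inflow list 3 genes were measured, with a median of 0.19 that turned negative in Xist-only cells (−0.59). Nr2f2 stood at 62.5 and 71.4 CPM in all selected cells, at 71.9 and 39.8 CPM in Xist-only cells and at 11.9 and 42.3 CPM in Y-only cells, so it was lower under the label cKO in Xist-only and higher in Y-only cells.

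Among cardiac transcription factors, 12 of 13 measured genes of 28 listed were lower under the label cKO, and the median log2 ratio was −0.45. Myocd, the cofactor of SRF in cardiac and smooth muscle, stood at 133 and 63.0 CPM (log2 ratio −1.08). Tbx20 stood at 158 and 80.2 CPM, Tead1, the DNA partner of YAP, at 209 and 118 CPM, and Nkx2-5 at 102 and 77.3 CPM. The list's median was −0.39 in Myl2-low cells and −0.48 in the remaining cells, also below 0.

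Lists of the contractile apparatus had unlike medians, a difference that was not tested. Thin filament genes had a median log2 ratio of −0.01 over all 12 listed, 4 with an interval above 0 and 5 below it, with Acta1 (0.21) and Tpm1 (0.16) slightly higher and Tnnt1, the slow skeletal troponin T, lower at 99.1 and 45.7 CPM. The median of the 5 measured thick filament and M-line genes of 8 listed was −0.54, with Mybpc3, myosin binding protein C, at 379 and 247 CPM, Myom1 at 169 and 115 CPM and Myl9 at equal levels. That median was smaller in size without scored doublets, after thinning, and in Xist-only and in Y-only cells, with values given below. Of 13 measured Z-disc and costamere genes of 14 listed, 11 were lower and 10 had an interval below 0. Examples are Ldb3 at 157 and 80.5 CPM and Synpo2l at 154 and 91.3 CPM, while Tcap, the titin cap, was higher at 73.7 and 112 CPM. Ttn stood at 5063 and 3499 CPM and Myh7 at 2119 and 1375 CPM, and both entered the selection. Mhrt, a noncoding RNA transcribed antisense from the Myh7 locus, stood at 140 and 56.2 CPM, and reads of Mhrt and Myh7 can be told apart only by strand.

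Calcium handling genes were mostly lower, 7 of 8 measured genes of 17 listed, with a median log2 ratio of −0.37. The list's median was −0.18 in Myl2-low cells (5 of 7 lower) and −0.28 in the remaining cells (2 of 2 lower). Ryr2, the calcium release channel, stood at 209 and 96.6 CPM (log2 ratio −1.12, −1.33 to −0.91), and differed in Xist-only cells (218 and 125 CPM) and in Y-only cells (253 and 120 CPM) alike. Atp2a2, the calcium pump SERCA2, stood at 697 and 444 CPM, and Pln at 216 and 171 CPM. Trdn, which anchors the release complex, stood at 92.0 and 93.1 CPM in these sums, with log2 ratios of −0.42 (−0.71 to −0.13) in cells with fewer than 2 outflow UMIs and 1.58 (0.94 to 2.25) in those with at least 2. Atp2a2 had −0.90 and 0.07 in the same cells.

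Of the 10 measured secreted signals of 20 listed, 8 were lower and 2 higher, both with intervals above 0. Of these 10, 4 were at least 2-fold lower (Sema3c, Bmp4, Vegfa and Wnt5a) and none at least 2-fold higher, with Wnt5a at 58.7 and 25.5 CPM. All 4 measured receptors of 20 listed were lower, with Igf1r at 127 and 64.4 CPM, Igf2r at 405 and 215 CPM, Bmpr1a at 89.7 and 53.9 CPM and Nrp1 at 156 and 122 CPM. In the matrix list 5 of 7 measured genes were lower. Vcan, the versican of cardiac jelly, stood at 873 and 474 CPM and Fn1, fibronectin, at 114 and 59.1 CPM, while Sparc stood at 291 and 297 CPM. Receptors had medians of −0.64 in Myl2-low and −0.52 in the remaining cells, beside −0.82 here.

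All 6 measured hypoxia genes of 11 listed were lower in the library labelled cKO with intervals below 0 and a median log2 ratio of −0.65, among them Vegfa at 68.1 and 25.5 CPM and Pdk1, the kinase that inhibits pyruvate dehydrogenase, at 86.9 and 46.3 CPM. Of 18 measured glycolysis genes of 19 listed, 11 were higher, 7 had an interval above 0 and 6 below it, and the median was 0.09 (−0.07 to 0.20). Examples are Eno1 at 551 and 909 CPM, Gapdh at 3411 and 4472 CPM and Pgk1 at 79.4 and 123 CPM. The glucose transporter gene Slc2a3 was lower at 82.2 and 36.0 CPM. The hypoxia list's median was −0.31 in Myl2-low cells (6 of 6 measured genes lower) and −0.39 in the remaining cells (3 of 3 lower). Vegfa had log2 ratios of −1.42 in the Myl2-positive, −1.12 in the Myl2-low and −1.44 in the remaining cells. Mitochondrial energy genes had a median of −0.07 over 18 measured genes, and 1 of them, the coactivator gene Ppargc1a, was past 2-fold, at 53.5 and 19.6 CPM.

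The 15 measured S phase genes of 20 listed had a median log2 ratio of −0.03 and the 18 measured G2 and M phase genes of 21 listed had 0.13. Single genes went both ways, with intervals above 0 for 2 S phase and 6 G2 and M phase genes and below 0 for 3 and 4. Ccnd2 was lower under the label cKO, at 904 and 617 CPM (log2 ratio −0.55, −0.64 to −0.46). Cdc20, an activator of the anaphase complex, was higher at 45.1 and 83.2 CPM, and Top2a, topoisomerase II, lower at 307 and 206 CPM.

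**Figure D4:**
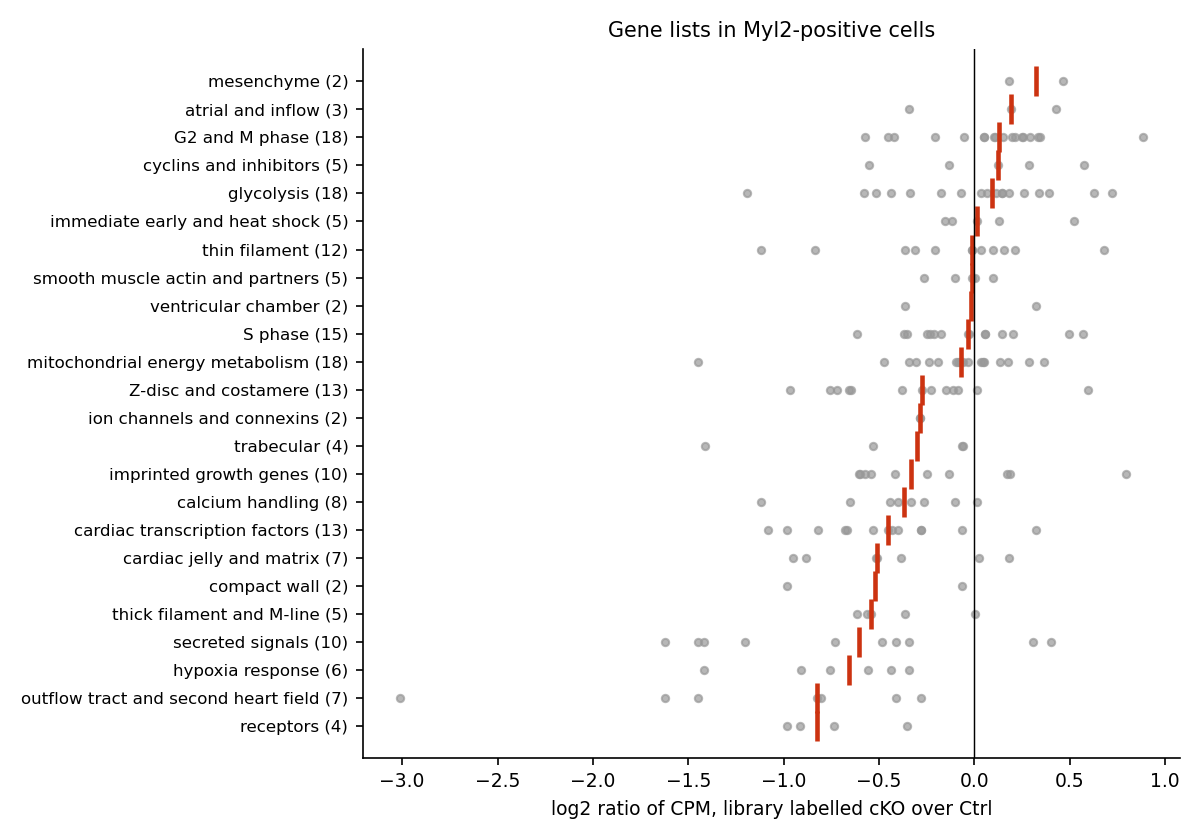
Log2 ratio of the library labelled cKO over the library labelled Ctrl in Myl2-positive cells, with a grey point per measured gene, a red mark at the median of each list and the number of measured genes in brackets. Receptors and outflow genes (both −0.82), hypoxia genes (−0.65) and thick filament genes (−0.54) have medians below 0, while thin filament (−0.01) and S phase genes (−0.03) lie near 0. The thick filament median was smaller in size without scored doublets, after thinning, and in Xist-only and in Y-only cells.

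Rpl29 and Tpm3-rs7 had like ratios in the other cells. Rpl29, a ribosomal protein gene, stood at 19.3 and 884 CPM in Myl2-positive cells, a log2 ratio of 5.52, and its log2 ratios were 5.53 in the Myl2-low and 5.30 in the remaining cells. Tpm3-rs7, a tropomyosin-related sequence, stood at 110 and 3.22 CPM (log2 ratio −5.10, with −4.54 and −4.57 in the other cells). Both are reported as uncertain, as are Gm10076, Gm10260 and Gm8730, since how reads shared with similar copies were counted was not tested. Of the 17 higher genes, 12 were at least 2-fold higher in Myl2-low cells and 8 in the remaining cells, and 17 and 14 were past 1.5-fold there.

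Of the 48 lower genes, 14 were at least 2-fold lower in Myl2-low cells and 8 in the remaining cells, and 38 and 30 past 1.5-fold. The 17 and 48 genes were picked for their ratios in the Myl2-positive cells, so smaller ratios elsewhere follow in part from the picking, and the difference was not tested. Ptn, the growth factor pleiotrophin, stood at 70.4 and 220 CPM (log2 ratio 1.64, against 0.80 and 0.36), and Stmn1, a microtubule regulator, stood at 148 and 314 CPM (1.09, against 1.01 and 0.69). Cd59a, a complement inhibitor, stood at 103 and 26.4 CPM, Itga6, a laminin receptor subunit, at 171 and 74.4 CPM, and Fhl1, a LIM protein of the sarcomere, at 157 and 67.0 CPM.

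Ubb, a polyubiquitin gene, stood at 93.9 and 823 CPM (log2 ratio 3.13, with 3.14 in both Myl2-low and remaining cells). Its level under the label cKO differed between Xist-only cells, at 1227 CPM (1166 to 1291), and Y-only cells, at 264 CPM (231 to 301), while under the label Ctrl these stood at 93.3 and 96.7 CPM. Malat1, a nuclear noncoding RNA, stood at 5592 and 3591 CPM (log2 ratio −0.64, against −0.30 in Myl2-low and −0.23 in the remaining cells). The median mitochondrial share of the Myl2-positive cells was 4.48% and 3.45%, and 2.90% and 2.30% in the remaining cells. The part of RNA quality in these ratios was not tested.

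**Figure D5:**
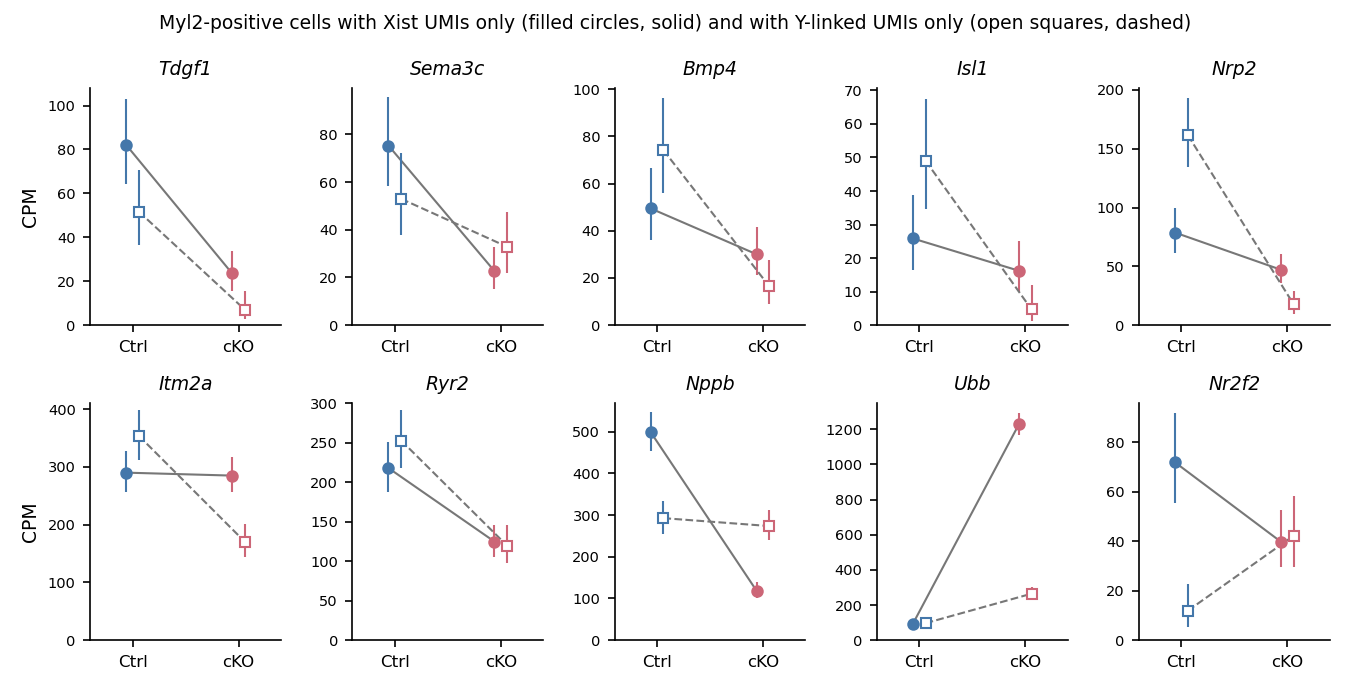
Level in CPM of 10 genes in Xist-only (filled circles, solid lines) and Y-only (open squares, dashed lines) Myl2-positive cells of each library, with 95% Poisson intervals. Tdgf1 and Ryr2 are lower in the library labelled cKO in both kinds of cells, Nppb in the Xist-only cells (499 and 119 CPM) with overlapping intervals in the Y-only cells, and Ubb is higher in both, most in the Xist-only cells (1227 CPM).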

How the data were processed

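Per the labels, the authors made the deposited matrices of UMI counts per gene and cell with Cell Ranger 3.1.0 against mm10, and these counts, over 27998 genes in 2 libraries, were used as deposited. The study's combined analysis with further libraries was not used here, and its cell names were not part of the input. Cells were taken by the rule given above. UMIs were summed over the cells of a group within a library and divided by the group's total (CPM). Sums carry exact Poisson intervals, ratios the exact conditional interval and shares Clopper-Pearson intervals, all at 95%. A median over a list carries the medians of its genes' lower and upper bounds. The floor of 3 counts came to 1.41 CPM in the selected cells labelled Ctrl and 0.878 CPM in those labelled cKO. A gene was measured with at least 50 CPM and 30 UMIs in either group, and a difference counted from 2-fold. Genes were named by size, the 12 largest ratios each way between the libraries with at least 100 CPM (10 qualified as higher) and the 10 largest each way against Myl2-low cells, besides list members and the Myl2 bins, which were described with their values seen. The selection rule, the gene lists and the alternatives were chosen with earlier results of these data known. Endothelial cells, for background shares, had at least 5 UMIs of 5 endothelial genes. Doublets were kept in the main values. Scrublet scores gave an alternative that removed the top 416 and 804 cells, since its own threshold was not used. Promoter windows were found for 35 of 51 named genes in the RefSeq table. Work was done in Python 3.11.15 with numpy 2.4.6, scipy 1.17.1, pandas 2.3.3 and scanpy 1.11.5, and the code was tested on simulated data. Counting of the 3′ ends gives no weight to gene length.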

Additional observations from a re-analysis of the deposited data

Results flagged for a closer look

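In 2 genes the Myl2-positive cardiomyocytes and the remaining cells pointed in opposite directions between the libraries by at least 1.5-fold each with intervals past 0, a difference that was not tested because each group had 1 library. Nppb had a log2 ratio of −1.41 (library labelled cKO over Ctrl) in the Myl2-positive cells and 2.47 in the remaining cells, where it stood at 0.127 and 0.703 CPM. Mybpc3 had −0.62 in the Myl2-positive cells and 0.65 in the remaining cells, where it stood at 0.962 and 1.51 CPM. Other genes also had opposite signs with at least 1 ratio below that size, such as Ttn (−0.53 and 0.49), Cck (−0.55 and 1.06), Myl4 (−0.14 and 0.83), Crabp2 (0.61 and −0.19) and Nr2f1 (0.43 and −0.32). For Nppb and Mybpc3 both levels in the remaining cells are low beside those in the Myl2-positive cells.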

How the results depend on the processing

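No paired analysis was possible because each group had 1 library, and for the same reason no library could be left out. Alternatives changed 1 choice at a time, except that the 1.5-fold limit came with a requirement on the interval. A minimum of 20 Myl2 UMIs and leaving out cells with both Xist and Y-linked UMIs were chosen after seeing the data. Counts of genes past 2-fold between the libraries, 17 higher and 48 lower, became 39 and 152 with genes from 20 CPM, 95 and 291 with a limit of 1.5-fold and an interval beyond 1, 47 and 108 after thinning, 34 higher in Xist-only cells, and 34 and 93 in Y-only cells. Higher genes made up 26.1% of the past-2-fold genes, 35.7% with at least 10 Myl2 UMIs and 36.6% in Xist-only cells. Against Myl2-low cells, counts in the library labelled Ctrl (40 higher and 47 lower) became 93 and 97 from 20 CPM, 120 and 126 with the 1.5-fold limit, 65 and 72 in Xist-only cells, and 63 higher after thinning. In the library labelled cKO (25 and 34) they became 49 and 75, 69 and 88, 54 and 57 in Y-only cells, and 56 lower after thinning or 55 lower without Scrublet doublets. In both libraries together (24 and 30) they became 43 and 55 from 20 CPM and 60 and 67 with the 1.5-fold limit. The outflow median (−0.82) was −0.45 and −0.61 with at least 10 and 20 Myl2 UMIs, −0.56 with at most 5% mitochondrial UMIs, −1.15 with at least 2% sarcomere UMIs, −1.16 without Scrublet doublets, −1.19 without cells of both sex signals and −0.63 in Xist-only cells. The thick filament median (−0.54) was −0.31 without doublets, −0.29 in Xist-only and −0.20 in Y-only cells, and −0.32 after thinning. The trabecular median (−0.30) was −0.52 with at most 5% mitochondrial UMIs, −0.047 in Y-only cells and −0.15 with equal weight per cell. The atrial median (0.19) was −0.59 in Xist-only cells, −0.26 after thinning and −0.18 without cells of both sex signals. The Myl2-positive share of filtered cells was 0.999% (labelled Ctrl) and 1.28% (labelled cKO) with at least 20 Myl2 UMIs, and 0.875% and 1.29% with at most 5% mitochondrial UMIs. The share of sarcomere-positive cells was 24.3% and 20.6% with at least 20, 27.1% (labelled Ctrl) with at least 10, and 27.5% (labelled Ctrl) with at most 5%. The cause of these shifts was not tested, apart from the wider lists of genes that a lower CPM limit admits. The other counts against Myl2-low cells and between the libraries stayed within 1.5 times. Over all lists and alternatives 31 of 327 medians, and over all genes counted per cell 64 of 308 shares of thinned cells, moved beyond their counting interval. The floor of 3 counts, which replaced a count of 0 in ratios, came to 1.41 CPM (labelled Ctrl) or 0.878 CPM (labelled cKO). Levels below it rest on fewer than 3 UMIs.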

Other observations

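Between Xist-only and Y-only Myl2-positive cells of the same library, 12 genes were at least 2-fold higher in Xist-only and 13 in Y-only cells under the label Ctrl, 0.796% of 3141 measured genes, and 8 and 7 under the label cKO, 0.512% of 2930. Ptn, the growth factor pleiotrophin, stood at 180 CPM in Xist-only and 71.6 CPM in Y-only cells labelled cKO, and Dlk1, an imprinted Notch-related ligand, at 167 and 69.3 CPM. Myl1, the fast skeletal light chain, stood at 148 and 330 CPM there. Under the label Ctrl, Cd59a stood at 62.9 CPM in Xist-only and 155 CPM in Y-only cells, and Erdr1 at 248 and 66.2 CPM. Nppb was higher in the Xist-only cells labelled Ctrl (499 and 293 CPM) and lower in the Xist-only cells labelled cKO (119 and 274 CPM). With a pair of embryos per library, sex and embryo cannot be told apart in these values.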
